A study of Mus musculus with 6 samples.

Results

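Matrix metalloproteinases, ADAMTS proteases and their tissue inhibitors are the subject here, in the sciatic nerve of mice at 25 days of age. Each mouse gave 1 Affymetrix array. The 3 mutant mice had the genotype DhhCre::Sip1 flox/flox and the 3 control mice the genotype Sip1 flox/flox, so both groups carried floxed alleles of Sip1, now called Zeb2, and only the mutants carried Cre. Cre stood under the desert hedgehog promoter, which is active in the Schwann cell lineage, and whole nerve RNA also holds the transcripts of cells without recombination. The members were all genes of the deposited table with a symbol of the form Mmp and a number, Timp1 to Timp4, or Adamts and a number: 44 of 20239 named genes, of which 22 were MMP, 4 TIMP and 18 ADAMTS genes. The related Mmp15 and Adamts2 were not analysed here.

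Matrix metalloproteinases are zinc proteases that cut collagens, proteoglycans, growth factors and adhesion molecules, and most are made as inactive precursors. ADAMTS proteases share the catalytic fold but carry thrombospondin repeats, and they cut large chondroitin sulphate proteoglycans, procollagens and microfibril proteins. The 4 TIMP proteins block the active sites. In peripheral nerve these enzymes are known for remodelling the basal lamina and matrix in development and after injury.

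Of the 44 members, 11 rose in the mutants, 3 fell and 30 did not pass the test (limma, Benjamini-Hochberg adjusted p under 0.05 over all named genes). The 14 that passed were 31.8% of the members, where 9.62% of all named genes passed. By direction, 25% of the members were higher, against 5.74% of all named genes, and 6.82% were lower, against 3.89%. The 3 mutant values lay on one side of the 3 control values in 21 members, or 47.7%, and in 28.1% of all named genes. The median log2 fold change was −0.01 over the members and −0.02 over all named genes, and the median of its absolute size was 0.25 over the members and 0.14 over all named genes. The families divided the calls unequally: 10 of 18 ADAMTS genes passed (8 higher, 2 lower), 1 of 4 TIMP genes (higher) and 3 of 22 MMP genes (2 higher, 1 lower). These calls were 55.6% of the ADAMTS, 25% of the TIMP and 13.6% of the MMP genes, the last near the 9.62% of all named genes. Values did not overlap in 66.7%, 50% and 31.8% of these families, against 28.1% of all named genes. In 13 of the MMP and 4 of the ADAMTS genes all 6 values lay under the array median, and none of these passed. The difference between families was not tested.

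**Figure D1:**
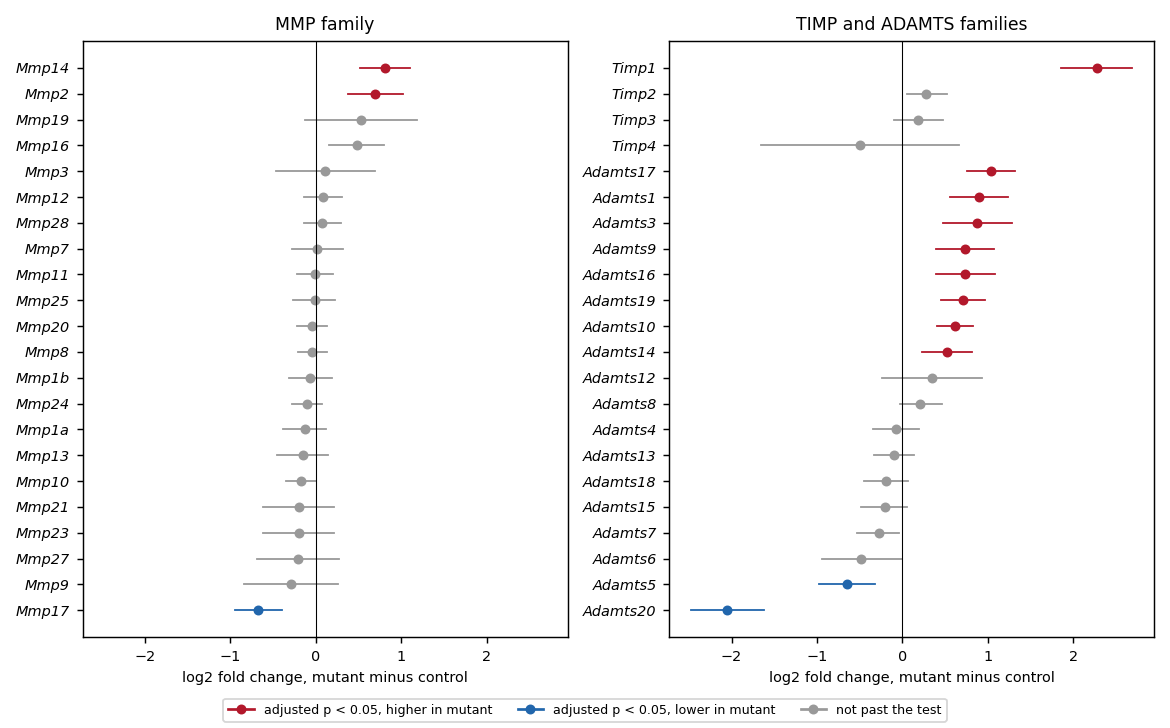
Log2 fold change (mutant minus control) of all 44 members with its 95% confidence interval, MMP genes on the left and TIMP and ADAMTS genes on the right. Red marks the 11 members that were higher at an adjusted p under 0.05, blue the 3 that were lower and grey the others; Timp1 at 2.28 and Adamts20 at −2.05 lie farthest from 0.

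The promoters of 6 members are shown because their genes frame these results: a protease inhibitor and a membrane protease that rose, the ADAMTS genes with the largest rise and the largest fall, and 2 genes of the Mmp run on chromosome 9, which did not pass. Each is the RefSeq window of GRCm38.p6 from 250 bases before to 50 after the gene's start, 5′ to 3′ on the strand of the gene. Capitals mark matches, on either strand, to CACCTG, the E-box that ZEB proteins bind, or to TGANTCA, which takes in the AP-1 site that JUN and FOS proteins bind. N stands for any base, so the pattern is wider than that site. Timp1 lies at chrX:20869916-20870215 on the plus strand, Mmp14 at chr14:54431348-54431647 on the plus strand, Adamts17 at chr7:66839485-66839784 on the plus strand and Adamts20 at chr15:94404301-94404600 on the minus strand. Mmp13 lies at chr9:7272264-7272563 and Mmp3 at chr9:7445572-7445871, both on the plus strand.
Timp1: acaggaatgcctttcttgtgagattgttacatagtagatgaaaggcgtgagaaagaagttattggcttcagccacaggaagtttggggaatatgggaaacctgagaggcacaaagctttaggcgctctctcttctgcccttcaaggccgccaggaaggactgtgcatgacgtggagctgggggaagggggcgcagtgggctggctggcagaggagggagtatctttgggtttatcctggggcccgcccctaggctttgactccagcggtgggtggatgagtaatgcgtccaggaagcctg
Mmp14: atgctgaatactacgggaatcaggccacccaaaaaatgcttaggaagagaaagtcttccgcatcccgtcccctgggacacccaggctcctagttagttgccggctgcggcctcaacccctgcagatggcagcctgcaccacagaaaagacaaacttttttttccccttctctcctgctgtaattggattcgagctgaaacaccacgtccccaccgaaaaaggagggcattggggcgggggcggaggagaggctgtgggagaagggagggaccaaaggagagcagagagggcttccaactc
Adamts17: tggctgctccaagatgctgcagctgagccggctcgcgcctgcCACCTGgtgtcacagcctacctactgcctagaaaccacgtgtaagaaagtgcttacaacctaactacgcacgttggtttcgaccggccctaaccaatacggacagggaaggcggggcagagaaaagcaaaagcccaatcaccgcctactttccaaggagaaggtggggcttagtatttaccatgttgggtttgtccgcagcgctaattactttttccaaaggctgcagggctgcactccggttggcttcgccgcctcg
Adamts20: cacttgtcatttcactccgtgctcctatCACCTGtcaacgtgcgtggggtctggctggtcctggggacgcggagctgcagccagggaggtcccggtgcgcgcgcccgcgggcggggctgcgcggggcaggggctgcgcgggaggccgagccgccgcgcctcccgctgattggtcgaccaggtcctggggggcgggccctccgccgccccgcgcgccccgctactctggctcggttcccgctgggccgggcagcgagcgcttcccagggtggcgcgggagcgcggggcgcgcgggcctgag
Mmp13: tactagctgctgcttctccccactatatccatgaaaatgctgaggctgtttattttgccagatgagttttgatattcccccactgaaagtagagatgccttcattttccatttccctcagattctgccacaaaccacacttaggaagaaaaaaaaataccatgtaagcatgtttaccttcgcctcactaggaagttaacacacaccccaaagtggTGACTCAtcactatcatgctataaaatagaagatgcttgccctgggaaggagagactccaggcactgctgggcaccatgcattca
Mmp3: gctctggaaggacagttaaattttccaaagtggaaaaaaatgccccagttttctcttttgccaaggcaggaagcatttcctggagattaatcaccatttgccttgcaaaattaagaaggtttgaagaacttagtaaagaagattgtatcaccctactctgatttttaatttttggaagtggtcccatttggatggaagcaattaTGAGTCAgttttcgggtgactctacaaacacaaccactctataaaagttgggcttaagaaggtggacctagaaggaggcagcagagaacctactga

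The windows of Adamts17, which rose, and Adamts20, which fell, each hold 1 CACCTG match, those of Mmp13 and Mmp3 each hold 1 TGANTCA match, and those of Timp1 and Mmp14 hold neither. RefSeq windows were at hand for 30 of the 44 members, as 33 windows. CACCTG was found in 21.2% of the member windows and in 20.2% of all 32851 windows, and TGANTCA in 24.2% of the member windows and 7.81% of all windows. Among the 8 members past the test with a window, 2 had a CACCTG match and 0 a TGANTCA match. All 8 member genes with a TGANTCA match belong to the run of 10 Mmp genes on chromosome 9, and 0 of the other 20 member genes with a window had one. Across all windows, 61 matches of one motif overlapped a match of the other. A match is a stretch of letters and was not tested for binding. Stretches that differ from these letters in any base were not counted, such as the tgagtaa in the Timp1 window. A window without a match may therefore still hold a variant site.

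The targeted gene was lower in the mutants: Zeb2 stood at 10.96, 10.66 and 11.01 in the mutants, against 11.67, 11.57 and 12.02 in the controls (log2 fold change −0.88, SE 0.15, limma adjusted p = 0.0137; 0.0522 without mutant 1). The sources used here do not say whether its probes lie in the floxed part, so this value may not measure the deletion. Skeletal muscle transcripts differed within both groups: the mean log2 value of 14 muscle markers ran from 7.56 to 12.31 in the mutants and from 7.62 to 12.30 in the controls, highest in the samples numbered 2. Xist and Y-linked transcripts placed mutants 1 and 2 and control 3 as males and the other mice as females. In all 14 members past the test the mutant and control values did not overlap. The sign of the difference was therefore bound to be the same within each sex and between same-numbered samples, which gives no separate check. Among markers of the nerve's own cells, the 5 measured markers of myelinating Schwann cells averaged 10.27 to 10.88 in the mutants and 12.54 to 12.99 in the controls, with 4 lower. Averages of 4 markers of all Schwann cells were 10.05 to 10.48 in the mutants and 10.89 to 11.54 in the controls, with 2 lower. Averages of 6 markers of immature and nonmyelinating Schwann cells were 10.11 to 10.54 in the mutants and 9.62 to 9.97 in the controls, with 3 higher and 2 lower. A change in the number of cells of a type and a change in RNA per cell cannot be told apart in whole nerve.

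Timp1, the secreted inhibitor that is induced in many injured tissues, had the largest change of any member. Its log2 values were 10.16, 9.51 and 9.91 in mutants 1 to 3, against 7.70, 7.64 and 7.42 in controls 1 to 3. Every mutant value exceeded the highest control value by at least 1.81, and mutant 2 was the lowest of the mutants. The mean was 9.86 ± 0.33 in the mutants and 7.58 ± 0.15 in the controls (SD, n = 3 each), a 4.84-fold higher level (log2 fold change 2.28, SE 0.17, 95% confidence interval 1.86 to 2.69, limma adjusted p = 0.000716). It passed in all 19 alternatives, with values from 2.13 to 2.48.

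The other three TIMP genes did not pass. Timp2, which both inhibits MMPs and helps MMP14 to activate MMP2, stood at 12.57, 12.37 and 12.59 in the mutants, against 12.21, 12.15 and 12.33 in the controls. These groups did not overlap, but the difference was small (log2 fold change 0.28, SE 0.10, limma adjusted p = 0.141). Timp3, the inhibitor that stays bound to the matrix and also blocks several ADAMTS proteases, stood at 13.04, 12.79 and 13.03 in the mutants, against 12.76, 12.61 and 12.94 in the controls. Here the groups overlapped (log2 fold change 0.18, SE 0.12, limma adjusted p = 0.442).

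Timp4, which fat and heart are known to express, varied more within the groups than between them. Its values were 8.56, 9.61 and 8.05 in the mutants, against 9.97, 9.28 and 8.46 in the controls (log2 fold change −0.50, SE 0.49, limma adjusted p = 0.62, 95% confidence interval −1.66 to 0.66). A mean taken over 9 adipocyte markers stood at 10.64, 11.15 and 10.27 for mutants 1 to 3, against 12.22, 11.27 and 9.85 for controls 1 to 3. Both measures were highest in control 1, and mutant 3 and control 3 had the lowest values of both. Mutant 2 lay above control 2 for Timp4 but below it for the adipocyte mean. With the adipocyte mean as a covariate the Timp4 difference was −0.17 (limma adjusted p = 0.768). The part of fat in the Timp4 values was not tested.

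**Figure D2:**
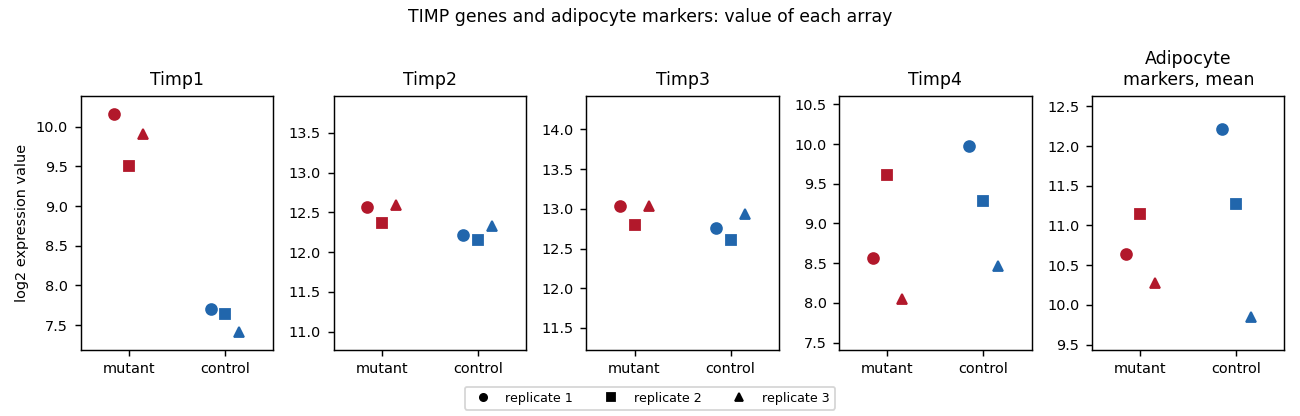
Log2 value of each array for the 4 TIMP genes and for the mean of 9 adipocyte markers, mutants left and controls right, with replicate numbers as symbols and the same span of log2 units on each vertical axis. Timp1 separates the groups, while Timp4 and the adipocyte mean are both highest in control 1.

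Among the gelatinases, Mmp2 rose and Mmp9 did not pass. Mmp2, gelatinase A, is the gelatinase of fibroblasts and other stromal cells. Its values were 13.32, 13.02 and 13.29 in the mutants, against 12.69, 12.55 and 12.28 in the controls (1.62-fold higher, log2 fold change 0.70, SE 0.14, limma adjusted p = 0.0224). All 3 mutants lay above all 3 controls, and control 3 was the lowest. Leaving out mutant 1 (adjusted p = 0.103), mutant 3 (0.102) or control 2 (0.0616) ended the call, as did leaving out both samples numbered 2 (0.0572), at differences of 0.64 to 0.81. Mmp9, gelatinase B, known from neutrophils, macrophages and injured Schwann cells, stood at 7.92, 7.66 and 7.53 in the mutants, against 8.34, 8.17 and 7.46 in the controls. The groups overlapped (log2 fold change −0.29, SE 0.23, limma adjusted p = 0.541), and control 3 was the lowest array. The mean of 6 neutrophil markers was 6.22 to 6.36 in the mutants and 6.40 to 6.65 in the controls. That of 8 macrophage markers was 9.19 to 9.50 in the mutants and 8.93 to 9.25 in the controls. None of these 14 markers passed with limma. An unadjusted p under 0.05 was found for 3 macrophage markers and 0 neutrophil markers, and for 4525 of all 20239 named genes.

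Of 5 measured membrane-type MMPs, 1 rose, 1 fell and 3 did not pass the test. Mmp14, the main membrane-bound collagenase and the activator of MMP2, stood at 11.40, 10.98 and 11.27 in the mutants, against 10.43, 10.48 and 10.30 in the controls (1.76-fold higher, log2 fold change 0.81, SE 0.12, limma adjusted p = 0.00903). It passed in all 19 alternatives, with differences from 0.72 to 0.97 and an adjusted p of up to 0.0496. Mmp17, which is held to the membrane by a lipid anchor, fell. Its values were 7.36, 7.43 and 7.43 in the mutants, against 7.97, 7.94 and 8.31 in the controls (1.59-fold lower, log2 fold change −0.67, SE 0.12, limma adjusted p = 0.0146). The mutant values lay close together and all below the controls, of which control 3 was the highest. Without mutant 1 the adjusted p of Mmp17 was 0.0754, without mutant 3 0.0649, and with both samples numbered 2 left out 0.0549.

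Mmp16, another membrane-bound MMP, had the smallest p of the MMP genes that did not pass. It stood at 8.14, 7.82 and 8.21 in the mutants, against 7.44, 7.54 and 7.75 in the controls, without overlap (log2 fold change 0.48, SE 0.14, limma adjusted p = 0.0781), and passed without mutant 2 (0.60, adjusted p = 0.0353) and with array weights (0.56, adjusted p = 0.0101). Mmp24 was at −0.10 and Mmp25, the lipid-anchored MMP of leukocytes, at −0.01.

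No secreted MMP other than Mmp2 passed in either direction, nor did Mmp23, which is made as a transmembrane protein. The 4 collagenases lay between −0.15 and −0.04 on the log2 fold change scale: Mmp13 at −0.15, Mmp8 of neutrophils at −0.04, and the near-identical Mmp1a and Mmp1b, whose probes may share signal, at −0.13 and −0.06. The stromelysins Mmp3 (0.11), Mmp10 (−0.17) and Mmp11 (−0.01), the matrilysin Mmp7 (0.02) and the macrophage elastase Mmp12 (0.09) were similar in size. Of the rest of the MMPs, Mmp19 stood at 0.53 (SE 0.28), Mmp28 or epilysin at 0.08, the enamel protease Mmp20 at −0.04, Mmp21 at −0.20, Mmp23 at −0.20 and Mmp27 at −0.21. Mmp19 ran from 8.96 to 9.92 in the mutants and from 8.65 to 9.37 in the controls, lowest within the mutants in mutant 2, and passed only with array weights (0.88, adjusted p = 0.0423).

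The 10 genes Mmp13, Mmp12, Mmp1b, Mmp3, Mmp1a, Mmp10, Mmp8, Mmp27, Mmp20 and Mmp7 follow one another on chromosome 9 in the RefSeq annotation, with 0 other protein-coding genes between them. None of the 10 passed with limma, none had an unadjusted p under 0.05, and none passed in an alternative. Of all 20239 named genes, 4525 had an unadjusted limma p under 0.05. Their log2 fold changes ran from −0.21 to 0.11. As described with the sequences above, the windows of 8 of these 10 genes hold a TGANTCA match. All 6 values were under the median of their array in 17 members, 13 MMP and 4 ADAMTS genes, and these included 0 of the calls and 0 genes with an unadjusted p under 0.05. The files used here give no detection calls, so for such genes a value near background and an unchanged transcript cannot be told apart.

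ADAMTS proteases of the large proteoglycans went both ways. Adamts20, known in mice for its part in the spread of melanoblasts from the neural crest, fell most. Its values were 8.84, 8.60 and 8.56 in mutants 1 to 3, against 10.38, 10.70 and 11.06 in controls 1 to 3. The lowest control exceeded the highest mutant by 1.54. The mean was 8.67 ± 0.15 in the mutants and 10.71 ± 0.34 in the controls (SD, n = 3 each), 4.13-fold lower (log2 fold change −2.05, SE 0.18, limma adjusted p = 0.00118), and the call held in all 19 alternatives, from −2.21 to −1.87.

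Adamts5, the main aggrecanase of mouse cartilage, also fell. It stood at 10.33, 10.07 and 10.28 in the mutants, against 10.68, 10.82 and 11.13 in the controls (1.57-fold lower, log2 fold change −0.65, SE 0.14, limma adjusted p = 0.0303). The groups did not overlap, yet 6 alternatives ended the call, those that left out mutant 1 (adjusted p = 0.0864), mutant 2 (0.075), mutant 3 (0.102), control 2 (0.0719), control 3 (0.0503) or both samples numbered 2 (0.124).

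Adamts1 and Adamts9, which both cut versican, rose. Adamts1 stood at 10.41, 10.47 and 10.20 in the mutants, against 9.67, 9.51 and 9.21 in the controls (1.86-fold higher, log2 fold change 0.90, SE 0.14, limma adjusted p = 0.00998). Adamts9 stood at 10.62, 10.42 and 10.56 in the mutants, against 10.09, 9.77 and 9.56 in the controls (1.66-fold higher, log2 fold change 0.73, SE 0.14, limma adjusted p = 0.0237). Neither gene's groups overlapped, and control 3 was the lowest array in both. The Adamts1 call ended when mutant 1 (adjusted p = 0.0534) or both samples numbered 2 (0.0712) were left out. That of Adamts9 ended when mutant 1 (0.106), mutant 3 (0.102), control 2 (0.0746) or both samples numbered 2 (0.0969) were left out. The aggrecanases Adamts4 (−0.08), Adamts8 (0.21) and Adamts15 (−0.21) did not pass.

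Both measured procollagen N-proteinases, which trim the amino end of fibrillar procollagens, were higher. Adamts3, which also activates the lymphatic growth factor VEGF-C, stood at 8.49, 7.88 and 8.47 in the mutants, against 7.48, 7.39 and 7.35 in the controls (1.83-fold higher, log2 fold change 0.87, SE 0.17, limma adjusted p = 0.0228). Mutant 2 lay between the other mutants and the controls, and the difference without it was 1.07. The call of Adamts3 was lost without any 1 of the other 5 arrays, with adjusted p from 0.0521 to 0.0981. Adamts14 stood at 9.50, 9.14 and 9.43 in the mutants, against 8.75, 8.78 and 8.98 in the controls (1.44-fold higher, log2 fold change 0.52, SE 0.12, limma adjusted p = 0.0428). Its lowest mutant value was close to its highest control value. Adamts14 lost its call in 8 alternatives: without mutant 1 (0.172), mutant 3 (0.17), control 1 (0.107) or control 2 (0.123), with both samples numbered 2 left out (0.0602), with arrays centred on their medians (0.0796), and with the muscle score (0.0566) or sex (0.101) as a covariate.

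Of the ADAMTS genes linked to microfibrils or with few known substrates, 4 of 6 rose. Adamts17, linked with Adamts10 to fibrillin microfibrils and to short stature syndromes in humans, stood at 10.02, 9.71 and 10.12 in the mutants, against 8.90, 8.86 and 8.98 in the controls (2.05-fold higher, log2 fold change 1.03, SE 0.12, limma adjusted p = 0.00314). Adamts10 stood at 10.72, 10.57 and 10.69 in the mutants, against 10.09, 10.12 and 9.94 in the controls (1.53-fold higher, log2 fold change 0.61, SE 0.09, limma adjusted p = 0.00772). For both genes the 3 controls lay within a narrow range below all mutants, and both passed in all 19 alternatives.

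Adamts16 and Adamts19, whose substrates are less well known, were higher as well. Adamts16 stood at 8.62, 8.41 and 8.79 in the mutants, against 8.09, 7.88 and 7.65 in the controls (1.66-fold higher, log2 fold change 0.73, SE 0.15, limma adjusted p = 0.0242). Adamts19 stood at 8.19, 7.87 and 8.20 in the mutants, against 7.38, 7.36 and 7.40 in the controls (1.63-fold higher, log2 fold change 0.71, SE 0.11, limma adjusted p = 0.00942). The controls of Adamts19 differed by at most 0.04, while mutant 2 was the lowest mutant in both genes. Leaving out mutant 1 (adjusted p = 0.1), mutant 3 (0.1), control 2 (0.0695), control 3 (0.0553) or both samples numbered 2 (0.0662) ended the call of Adamts16. For Adamts19 the arrays concerned were mutant 1 (0.053) and mutant 3 (0.0502).

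Among the ADAMTS genes that did not pass, Adamts7 had the smallest p. This protease, which cuts cartilage oligomeric matrix protein, stood at 8.72, 8.60 and 8.62 in the mutants, against 8.93, 8.77 and 9.09 in the controls (log2 fold change −0.28, SE 0.10, limma adjusted p = 0.16), without overlap. Adamts12, its relative, was at 0.35 (SE 0.25), with control 3 at 9.38 below all other arrays. Adamts6 was at −0.48, Adamts18 at −0.19 and Adamts13, the protease of von Willebrand factor, at −0.10.

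**Figure D3:**
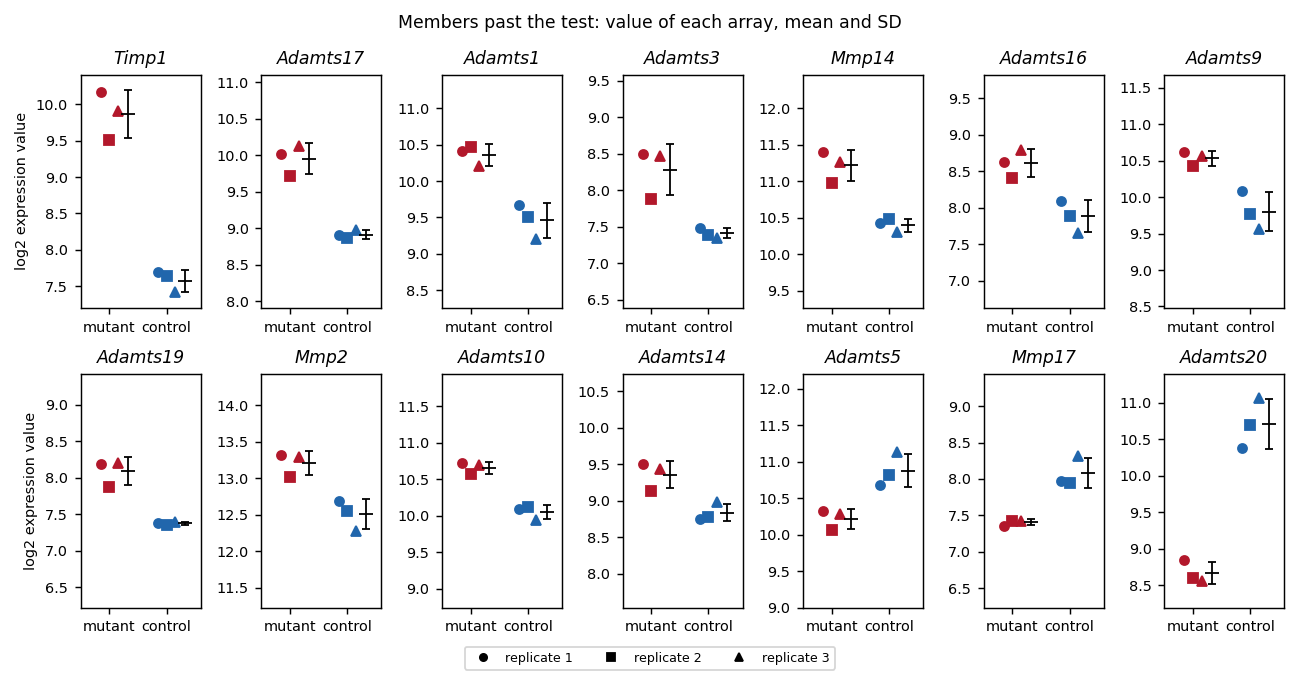
Log2 value of each array for the 14 members past the test, ordered by log2 fold change, with mutants in red on the left, controls in blue on the right, replicate numbers as symbols and black bars for mean ± SD (n = 3 each). Each vertical axis has the same span, and in every panel the groups do not overlap.

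**Figure D4:**
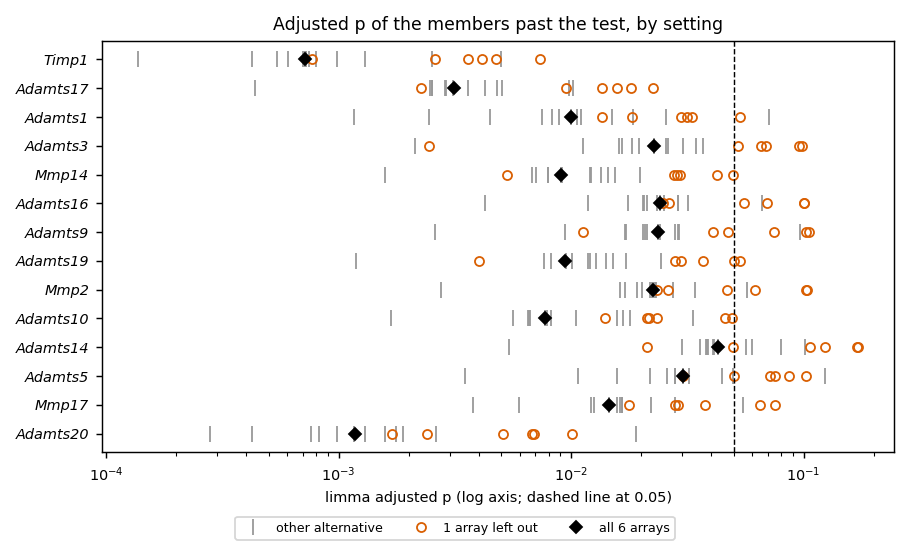
Limma adjusted p (log axis) of the 14 members past the test with all 6 arrays (black), with 1 array left out (orange circles) and under the other alternatives (grey bars), with a dashed line at 0.05. For Timp1, Adamts17, Mmp14, Adamts10 and Adamts20 all symbols lie below 0.05.

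Among markers of other nerve cell types, those of 2 types had calls and moved in the same direction as most members past the test. The mean of 6 perineurial markers was 11.33 to 11.49 in the mutants and 10.18 to 10.55 in the controls, with 5 of 6 higher. The mean of 7 fibroblast markers was 12.22 to 12.50 in the mutants and 11.85 to 12.07 in the controls, with 3 of 7 higher (Lum, Cd34 and Pdgfra). The 8 macrophage markers, with 0 calls, had a median log2 fold change of 0.32, beside 0.31 for the fibroblast and 0.99 for the perineurial markers. The part of these cell types in the rises of Timp1, Mmp2, Mmp14 and the ADAMTS genes was not tested. The means of 4 T cell, 6 mast cell, 5 endothelial, 6 pericyte and smooth muscle and 6 chondrocyte markers overlapped between the groups, with 0 calls in each list. In these lists 0, 0, 2, 2 and 0 markers had an unadjusted limma p under 0.05, as had 4525 of all 20239 named genes.

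Of 30 measured activators, inhibitors and cofactors, 7 rose and 3 fell (33.3% called, against 9.62% of all named genes; median log2 fold change 0.20). Cd44, the hyaluronan receptor that docks MMP9 and MMP14 at the cell surface, stood at 10.06, 9.57 and 9.97 in the mutants, against 8.28, 7.92 and 7.96 in the controls (1.81, limma adjusted p = 0.00123). Cldn1, a tight junction protein that is also among the perineurial markers, rose by 1.53, the syndecan Sdc4 by 1.15 and the protease inhibitor Tfpi2 by 1.00. Reck, a membrane-anchored MMP inhibitor, rose by 0.46 (limma adjusted p = 0.047), standing at 11.01, 10.72 and 10.98 in the mutants, against 10.34, 10.43 and 10.55 in the controls. Serpina3n, a serine protease inhibitor, was at −1.12 and the proprotein convertase Pcsk6 at −1.08, both lower, while Furin, the convertase that activates MMP14 and many ADAMTS precursors, did not pass at 0.24. The plasminogen activators Plat (0.57, adjusted p = 0.0677) and Plau (−0.04) did not pass either. The count of 10 fell to 6 without mutant 1, control 2 or control 3, and to 5 without mutant 3. Tfpi2 kept its call without mutant 2 but not without any 1 of the other arrays (adjusted p from 0.0539 to 0.115), Reck likewise (0.0594 to 0.194) and also not with the replicate block (0.0594), and Serpina3n lost it without mutant 3 (0.0741).

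Of 21 related proteases, most of them of the ADAM and astacin families, 2 rose and 4 fell (28.6% called, median −0.02). The procollagen C-proteinases divided: Tll1 fell by 2.21, standing at 7.59, 7.64 and 7.67 in the mutants, against 9.51, 9.74 and 10.27 in the controls, whereas Bmp1 rose by 0.73 (limma adjusted p = 0.00107 and 0.00303). Adam23, a catalytically inactive adhesion protein, fell by 1.41, the sheddase Adam10 by 1.30 and Adam19 by 0.64, and Adam33 rose by 0.57. The call of Adam33 ended without mutant 3 (0.0878), and that of Adam19 without mutant 1 or any 1 of the controls (0.0625 to 0.0889). The sheddase Adam17 did not pass at 0.20.

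A list of 29 measured matrix and membrane proteins, most of them known substrates, had 10 higher and 2 lower (41.4% called; median 0.26). Those that ADAMTS proteases are known to cut included the proteoglycans Bcan (2.09), Vcan (1.40) and Ncan (0.91), which rose, and Acan (0.16, adjusted p = 0.28), which did not pass. Vcan stood at 11.69, 10.93 and 11.69 in the mutants, against 10.24, 9.97 and 9.89 in the controls. Fbn2, a fibrillin, rose by 2.33, the matricellular protein Thbs1 by 1.70 and the small proteoglycan Epyc was 16-fold higher. Myelin basic protein, Mbp, and von Willebrand factor, Vwf, were lower, at −1.39 and −0.43. The fibrillar collagens Col1a1 (0.26), Col1a2 (0.20) and Col3a1 (0.25) did not pass. Without mutant 1 or mutant 3, 7 of the 29 passed. Ncan passed with 1 array left out only where that array was mutant 2, and Vwf in none of those fits nor with the replicate block (adjusted p = 0.0592).

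Of 18 measured factors and cytokines known to induce metalloproteinase genes, 6 rose and 0 fell (33.3% called; median 0.38). Jun, a subunit of AP-1, stood at 11.86, 11.20 and 11.12 in the mutants, against 10.05, 10.20 and 10.24 in the controls (1.23, limma adjusted p = 0.0109). The ETS factors Etv4 (0.99) and Ets2 (0.78), the AP-1 subunit Fosl2 (0.84), Runx1 (0.66) and Stat3 (0.52) rose too. The cytokines Il1b, Tnf, Il6, Osm and Tgfb1 did not pass and lay between −0.06 and 0.34. With sex as a covariate 3 of the 18 passed, and without mutant 1, mutant 3, control 1 or control 2 the count was 2, 3, 3 and 3. Fosl2, Runx1 and Stat3 passed in neither the sex fit nor the fits without mutant 1 or mutant 3 (adjusted p from 0.0625 to 0.168), and Ets2 missed the threshold without mutant 1 (0.0552) and Jun with both samples numbered 2 left out (0.0544).

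**Figure D5:**
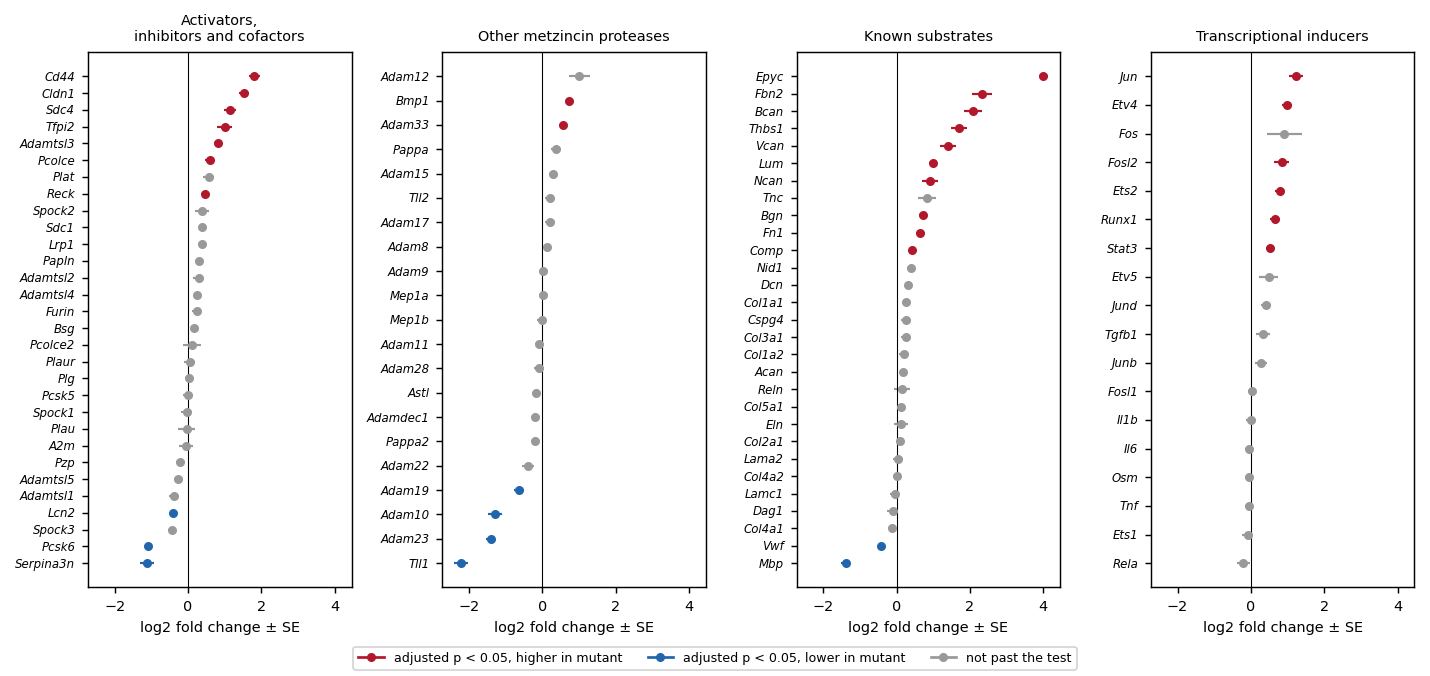
Log2 fold change (mutant minus control) ± SE of every measured gene in the 4 lists of related genes, with red for genes higher at an adjusted p under 0.05, blue for genes lower and grey for the others. Epyc and Fbn2 at 2.33, both higher, lie farthest from 0, and Tll1 at −2.21 lies farthest below it.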

How the data were processed

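Per the labels' protocols, total RNA came from Trizol extraction and was prepared with an Ambion whole-transcript kit and biotin label for 1-colour Affymetrix arrays. The values deposited by the authors are log2 values, 1 for each gene-level probe set in each mouse. Their range of 3.55 to 14.52 gave the log base, and array medians were 8.0 to 8.08. Limma is named in the submitters' processing notes. How background, normalization and summary were handled: not given in the sources used here. Of 21225 probe sets, 20239 had 1 symbol in the platform annotation, each with 1 probe set, and 986 had none. Precision is limited by the number of arrays.

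The model was fitted to all named genes with lmFit and eBayes of limma 3.58.1 under R 4.3.3 ( mutant minus control, two-sided, no trend, not robust, no block, 6.893 degrees of freedom), with Benjamini-Hochberg adjustment over all 20239. Log2 fold changes are mutant mean minus control mean, and SE is moderated. The labels call the samples biological replicates. The fit was also run on simulated independent normal values with known changes. These lacked the muscle, fat and sex differences of the arrays, so they do not test the fit under such differences. Python 3.11.15 and matplotlib 3.10.9 made the figures.

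Both groups carry replicate numbers 1 to 3 in the sample titles, with no statement of what they share. Samples of the same number deviated from their group means together, with correlations of 0.36, 0.574 and 0.295 over all named genes, each over 0.1. From these data, and not from the labels, the numbers were used as a block in an alternative, not in the main fit. Mutant 1 and control 3 correlated at 0.303, so the correlations do not single out the numbering. Muscle marker means were also similar within a number (7.56 and 7.62, 12.31 and 12.30, 9.87 and 10.39). The part of muscle in the correlations was not tested. The alternatives left out the lowest 25% or 50% of genes, repeated quantile normalization, centred arrays on medians, added 16 to the linear values, used a trended robust prior, array weights, the replicate block, every probe set, or sex, muscle or adipocyte scores as covariates, left out each array in turn, and left out both samples numbered 2.

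Every member is named with its log2 fold change; values by array are given for members that passed, the TIMP genes, the gelatinases and the member of each family with the smallest p that did not pass. Of the other lists, the up to 6 members that passed with the largest change are named; values of further list genes (Reck, Furin, Plat, Plau, Adam17, Acan, Ncan, Vwf, the fibrillar collagens and the cytokines) were chosen after they were seen. The members, the lists and the alternatives were chosen with earlier results of these data known.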

Additional observations from a re-analysis of the deposited data

How the results depend on the processing

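No member past the test changed sign in any of the 19 alternatives. Of the 14, 5 passed in all of them (Timp1, Adamts20, Adamts17, Mmp14 and Adamts10) and 9 lost the call in 1 or more; 3 of the 30 others (Mmp16, Mmp19 and Timp2, the last at 0.36 and adjusted p = 0.0233 with array weights) gained it in 1 or more.

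With 1 array left out, and so fewer samples, the higher members numbered 4 to 12 and the lower members 1 to 3. Without mutant 1, 4 were higher and 1 lower; without mutant 3, 5 and 1; without control 2, 6 and 2. The share called was then 11.4%, 13.6% and 18.2% of members, against 4.43%, 4.5% and 6.49% of all named genes. With both samples numbered 2 left out, 6 were higher and 1 lower (15.9%, against 6.54%). Over all named genes 1948 passed, 896 without mutant 1, 910 without mutant 3 and 3655 with array weights, where 14 members were higher and 3 lower.

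The members' median of −0.01 became 0.10 and 0.31 without the lowest 25% and 50% of genes, which removes members, 0.04 with repeated quantile normalization and −0.06 with centred arrays, for which the cause was not tested; with 1 array left out it ran from −0.02 to 0.02. With 1 array left out, 5 to 12 of the activators, inhibitors and cofactors passed (10 with all arrays), 5 to 7 of the other proteases (6), 7 to 13 of the substrates (12) and 2 to 6 of the inducers (6). The inducers that passed were 3 with sex as a covariate and 3 with both samples numbered 2 left out; array weights gave 15 activators, inhibitors and cofactors and 17 substrates.

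A replicate block gave 11 higher and 3 lower members and changed no call of a member. With this block, 9 activators, inhibitors and cofactors, 7 other proteases, 12 substrates and 6 inducers passed. Signal over background limits the 17 members whose 6 values were all under the array medians.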
